A study of Mus musculus with 6 samples.

Results

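The interferon regulatory factor (IRF) genes and the genes of the IRF2-binding cofactors were described in iKAP primary cultured cells, line #3346. The members were taken by gene symbol from the array's annotation: Irf1, Irf2, Irf3, Irf5, Irf7 and Irf9 of the IRF family, and the cofactor genes Irf2bp1, Irf2bp2 and Irf2bpl. These 9 genes were read by 18 of 45037 non-control probe sets, and all 9 were among the 12795 genes tested. Irf4 and Irf8, also of the family, were under the intensity filter. Total RNA was hybridised to 6 arrays, 3 labelled IRF2 and 3 labelled GFP control. In the group labelled IRF2 the cells stably carried an IRF2 open reading frame in the lentiviral vector pLenti6.3, and in the GFP control group they carried GFP in the same vector. Both groups came from the same mouse cells, grown in a DMEM medium free of tetracycline. iKAP is known as a mouse model of colorectal cancer; no label gives the alleles of line #3346 or says whether doxycycline was present. All arrays came from this 1 line, and no label gives separate cultures for the replicates. The p-values therefore measure the spread between arrays only, which may be technical.

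IRF proteins bind DNA through an amino-terminal domain with a conserved tryptophan repeat, and recognise the GAAA repeats of the interferon-stimulated response element. IRF1 is an activator induced by interferon gamma, and IRF2 binds the same element, for the most part as a repressor that competes with IRF1. IRF3, IRF5 and IRF7 are held in the cytoplasm until kinases below innate immune receptors phosphorylate them, whereas IRF9 joins STAT proteins in the complex ISGF3, which carries the type I interferon signal to the nucleus. IRF2BP1, IRF2BP2 and IRF2BPL share a zinc finger and a RING finger; IRF2BP1 and IRF2BP2 were found as corepressors that bind IRF2.

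Of the 9 members, 3 rose on the arrays labelled IRF2 and 1 fell, and 5 did not pass the test. Irf9, Irf7 and Irf2bpl were higher, by 1.28- to 1.39-fold, and Irf2 itself was lower. Irf7 was dim and passed the intensity filter through the arrays labelled IRF2, so its place in these counts supports nothing. Under the filter at the 60th percentile Irf7 was left out, and 2 members were higher. In bulk RNA, fewer cells of a type and less RNA per cell cannot be told apart. Over all genes tested, 16.5% were called higher and 19.8% lower at a limma adjusted p under 0.05, 36.3% in either direction, so 4 of 9 members is close to the background and is no result about the family as a group. The median log2 fold change was 0.04 over the members and -0.0007 over all genes tested. In each called member the 3 arrays labelled IRF2 lay apart from the 3 GFP control arrays. In 46.2% of all genes tested the groups did not overlap, with the IRF2 group above in 22.0% and below in 24.2%.

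**Figure D1:**
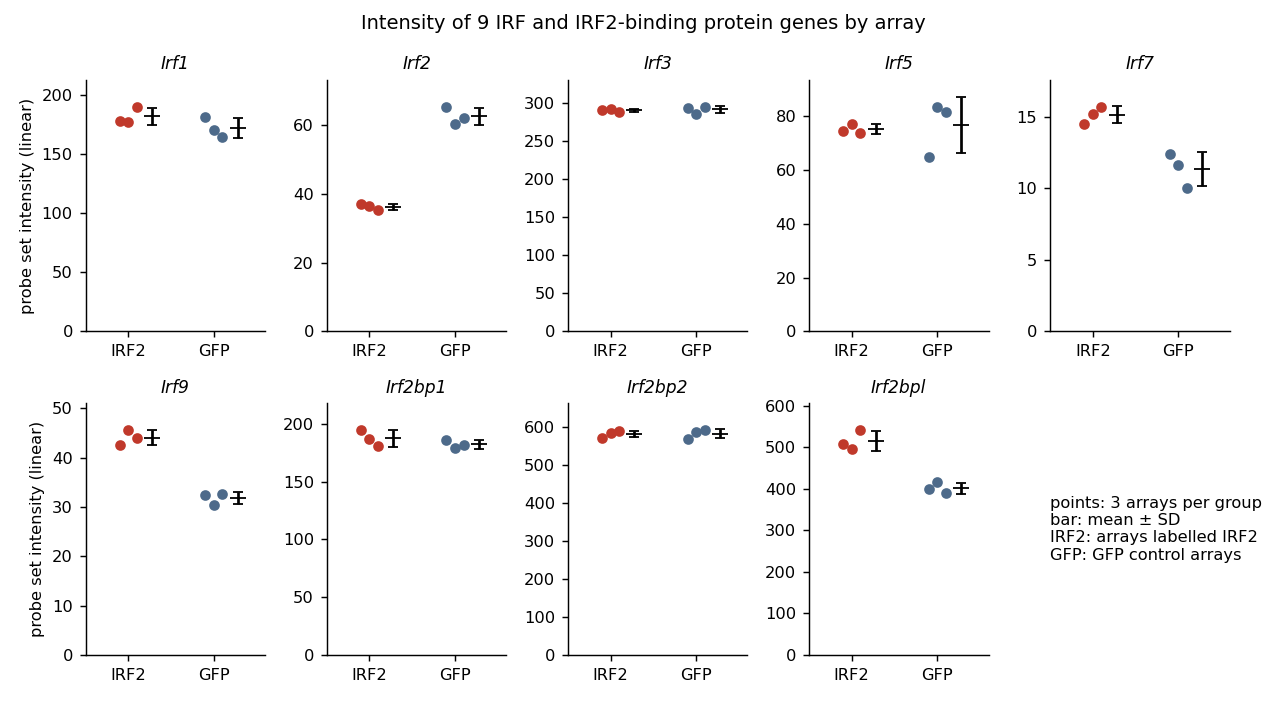
Linear probe set intensity (y axis, starting at 0, scaled per gene) of the 9 members, with the 3 arrays labelled IRF2 to the left of the 3 GFP control arrays and the mean ± SD beside each group. The groups lie apart for Irf2 (lower on the arrays labelled IRF2) and for Irf7, Irf9 and Irf2bpl (higher), and they overlap for the other 5 genes.

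Irf2, on chromosome 8, was read by a single probe set, 1418265_s_at, which the annotation ties to a mouse Irf2 mRNA. Its intensity was 37.0, 36.6 and 35.2 on the arrays labelled IRF2, against 65.4, 60.5 and 62.0 on the GFP control arrays. All 3 arrays labelled IRF2 were thus lower than every GFP control array. The means were 36.3 ± 0.934 and 62.6 ± 2.53 (n = 3 each, SD), which gave a log2 fold change of -0.79 (SE 0.06; 95% interval -0.93 to -0.65; adjusted p from limma = 1.73e-07). A change of this size or larger was rare, since 98.7% of the genes tested changed by less in size. The direction goes against the group's label, and the group is called "labelled IRF2" for that reason. The species of the open reading frame and the stretch of the transcript that the probe set reads were not given, and whether this probe set detects the introduced sequence was not tested. Every direction given here is that of the labels. On Affymetrix arrays the ending _s_at marks probes that several transcripts share, and which transcripts these are was not examined.

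Irf1, on chromosome 11, is the activator that shares binding sites with IRF2. Its probe set 1448436_a_at read 178, 177 and 190 on the arrays labelled IRF2, against 181, 171 and 165 on the GFP control arrays, and the groups overlapped. The log2 fold change was 0.08 (SE 0.05, limma adjusted p = 0.205), and the 95% interval ran from -0.02 to 0.18. A rise of Irf1 by more than 0.18 on the log2 scale thus lay outside the interval. Because IRF1 and IRF2 are known to compete, the log2 intensity of Irf1 minus that of Irf2 was taken within each array. The offset between a pair of probe sets has no meaning of its own, and only its difference between the groups is read. It was 2.27, 2.28 and 2.43 on the arrays labelled IRF2, against 1.47, 1.50 and 1.41 on the GFP control arrays. The groups differed by 0.87, which is by construction the Irf1 change of 0.08 minus the Irf2 change of -0.79 and is no result beside them (exact two-sided permutation test, p = 0.1, n = 3 each, the smallest p that the 20 splits of 6 arrays allow). The same difference was between 0.81 and 0.90 in the 6 runs that each left out 1 array.

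The promoters of the members were read because IRF2, IRF1 and ISGF3 bind GAAA repeats and STAT dimers bind the gamma-activated site. The RefSeq windows of GRCm38.p6 run from 250 bases before to 50 bases after a gene's start; all 9 members had a window and Irf1 and Irf9 had a pair of them, 11 windows in all. Each was searched on both strands for GAAA and GAAA with any 2 bases between them (the core of the interferon-stimulated response element), TTCNNNGAA (the gamma-activated site) and GGGA and TTCC with any 2 bases between them (an NF-kappaB-like site). Only the Irf2 window held the response element core, 241 to 232 bases before the start. A gamma-activated site followed it in the same window, 224 to 216 bases before the start, and further ones stood in a window of Irf1, 90 to 82 bases before the start, and in that of Irf2bp1, 59 to 51 bases before the start. None of these matches overlapped another, and no member window held the NF-kappaB-like site. Of all 32851 promoter windows, 3.44% held the response element core, 8.30% the gamma-activated site and 1.47% the NF-kappaB-like site. Over the 13138 windows of tested genes, as all members are, these shares were 2.76%, 6.75% and 1.48%. The 250 bases before the start are shown for the 3 windows with a match, since these include the member that fell and its known competitor. Capitals mark the response element core (the first run of capitals in Irf2) and the gamma-activated sites.
Irf2, chr8:46739495-46739744, plus strand: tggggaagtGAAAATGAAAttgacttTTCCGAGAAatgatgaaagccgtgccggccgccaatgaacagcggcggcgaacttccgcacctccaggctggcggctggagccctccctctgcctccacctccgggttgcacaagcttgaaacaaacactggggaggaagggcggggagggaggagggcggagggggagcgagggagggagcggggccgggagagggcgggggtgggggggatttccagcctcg
Irf1, chr11:53769764-53770013, plus strand: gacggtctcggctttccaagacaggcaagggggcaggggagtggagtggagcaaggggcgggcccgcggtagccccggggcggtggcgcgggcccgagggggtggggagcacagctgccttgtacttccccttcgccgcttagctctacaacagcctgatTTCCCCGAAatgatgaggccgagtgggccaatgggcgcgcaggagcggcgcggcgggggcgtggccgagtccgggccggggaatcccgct
Irf2bp1, chr7:19003808-19004057, plus strand: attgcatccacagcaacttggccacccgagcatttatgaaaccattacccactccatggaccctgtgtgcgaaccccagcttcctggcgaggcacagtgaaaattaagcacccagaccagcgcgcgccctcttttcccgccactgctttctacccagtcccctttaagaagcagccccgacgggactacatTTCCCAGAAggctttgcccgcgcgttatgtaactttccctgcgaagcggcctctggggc
In Irf1 and Irf2 the gamma-activated site was followed by the same 7 bases, which was noticed after the sequences were seen. The windows of Irf7, Irf9 and Irf2bpl, the members that rose, held none of the 3 motifs, which says only that these letters do not stand in these windows.

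Irf9 rose. It is on chromosome 14 and encodes the DNA-binding subunit of ISGF3. Its only probe set, 1421322_a_at, read 42.6, 45.5 and 44.1 on the arrays labelled IRF2, against 32.4, 30.4 and 32.6 on the GFP control arrays. All 3 arrays labelled IRF2 were above the GFP control arrays, and the spread within a group was small beside the gap between them. The log2 fold change was 0.47 (SE 0.07, limma adjusted p = 6.54e-05), which is 1.39-fold, and 96.0% of the genes tested changed by less in size. Stat2, which encodes the STAT partner that IRF9 contacts, averaged 15.1 ± 0.921 on the arrays labelled IRF2 and 12.0 ± 1.01 on the GFP control arrays (n = 3 each, SD; log2 fold change 0.34, SE 0.09, limma adjusted p = 0.0100; 0.15 with 16 added before the log).

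Irf7, on chromosome 7, encodes the IRF that amplifies interferon alpha production and is itself known as an ISGF3 target. Its only probe set, 1417244_a_at, read 14.5, 15.2 and 15.7 on the arrays labelled IRF2, against 12.4, 11.6 and 10.0 on the GFP control arrays. The groups did not overlap, and the log2 fold change was 0.42 (SE 0.10, limma adjusted p = 0.00301), which is 1.34-fold. This is the dimmest of the members' representative probe sets: the filter stood at an intensity of 11.3, and the GFP control mean of 11.3 ± 1.20 (SD, n = 3) lay at that level, so the gene passed the filter through the arrays labelled IRF2. Tested over all probe sets with no filter it had an adjusted p of 0.00799. With 16 added to each intensity before the log the change was 0.19 (adjusted p = 0.00373), and under the filter at the 60th percentile the gene was left out.

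Irf3 and Irf5, which act with kinases below innate immune receptors, did not pass the test. Irf3, expressed in most cells and also on chromosome 7, read 291, 292 and 288 on the arrays labelled IRF2, against 293, 286 and 295 on the GFP control arrays in its brightest probe set, 1426111_x_at. The 6 values overlapped within a narrow range, and the 95% interval of the log2 fold change ran from -0.07 to 0.06 (limma adjusted p = 0.920). That interval holds for this probe set only, and probes marked _x_at can bind other transcripts. The 3 other Irf3 probe sets gave log2 fold changes between -0.06 and 0.14, and none passed when each probe set was tested on its own. The highest was 1435271_at, which ends in a plain _at (0.14, SE 0.09, limma adjusted p = 0.391). Its difference from the brightest probe set did not pass (limma adjusted p = 0.491). Irf5, on chromosome 6, is a regulator of inflammatory cytokine genes in myeloid and B cells. Its brighter probe set read 74.6, 77.4 and 73.8 on the arrays labelled IRF2, against 64.9, 83.6 and 81.7 on the GFP control arrays. The low GFP control replicate 1 lay apart from the other two arrays of its group, and the interval was wide, from -0.19 to 0.15 on the log2 scale (limma adjusted p = 0.884). Without GFP control replicate 1 the log2 fold change was -0.14 (SE 0.06, limma adjusted p = 0.105). The sign turned without GFP control replicate 2 (0.047) and without GFP control replicate 3 (0.030). The dimmer Irf5 probe set averaged 16.2 ± 1.09 on the arrays labelled IRF2 and 17.4 ± 0.515 on the GFP control arrays (n = 3 each, SD; log2 fold change -0.11, SE 0.09).

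Irf4 and Irf8, the lymphoid and myeloid members of the family, were dim in both groups. The brighter Irf4 probe set averaged 8.59 ± 0.582 on the arrays labelled IRF2 and 7.79 ± 0.290 on the GFP control arrays, and that of Irf8 9.32 ± 1.01 on the arrays labelled IRF2 and 8.72 ± 0.720 on the GFP control arrays (n = 3 each, SD). Both genes lay under the filter of 11.3 and a little above the 3.69 to 6.52 read over the 6 arrays by the 3 tryptophan control probe sets, which no mouse transcript should fill. Markers of blood cells were examined beside them. Of 11 measured leukocyte markers, 6 lay above the filter and none of these passed the test, beside 36.3% of all genes tested. The summed intensity of all 11 ran from 213 to 231 on the arrays labelled IRF2 and from 210 to 227 on GFP control arrays. Ptprc, which encodes the pan-leukocyte antigen CD45, averaged 4.96 ± 0.522 on the arrays labelled IRF2 and 4.48 ± 0.210 on the GFP control arrays (n = 3 each, SD), at the level of the tryptophan controls. The epithelial keratin genes were bright: Krt8 averaged 4999 ± 114 on the arrays labelled IRF2 and 3533 ± 32.7 on the GFP control arrays (n = 3 each, SD). Epcam, which encodes an epithelial adhesion protein, was dimmer, at 27.8 ± 5.31 on the arrays labelled IRF2 and 48.2 ± 1.27 on the GFP control arrays (n = 3 each, SD). Of the 8 colon epithelial markers tested, Krt8 (0.50) and Krt18 (0.08) rose and Epcam (-0.81), Cdh1 (-0.75) and Cdh17 (-0.57) fell on the log2 scale. That is 62.5% of the 8, beside 36.3% of all genes tested. Without the intensity trend Krt18 did not pass (adjusted p = 0.0866), and averaged over its probe sets Epcam came to -0.43. Vil1, Krt20 and Cdx1 lay under the filter, and the gut transcription factor gene Cdx2 averaged 86.03 ± 3.76 on the arrays labelled IRF2 and 93.5 ± 3.52 on the GFP control arrays (n = 3 each, SD; adjusted p = 0.103). The summed intensity of all 11 measured, most of it from Krt8, Krt18 and Krt19, ran from 16049 to 16182 on the arrays labelled IRF2 and from 14551 to 14701 on the GFP control arrays. Of 8 fibroblast and stromal markers, 6 were tested. Pdgfra and Acta2 rose and Pdgfrb fell, 50% beside 36.3% of all genes tested. The sum over the list ran from 245 to 263 on the arrays labelled IRF2 and from 223 to 228 on the GFP control arrays. The part of these shifts in the changes of the members was not tested. Of 5 endothelial markers, 2 were tested and neither passed, beside the same 36.3%. The sums over all 5 were 45.5 to 49.98 on the arrays labelled IRF2 and 44.2 to 46.9 on the GFP control arrays.

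Among the cofactor genes, Irf2bpl rose. It is on chromosome 12, and its product is known as a nuclear protein with a RING finger. Its brightest probe set, 1454609_x_at, read 508, 495 and 541 on the arrays labelled IRF2, against 399, 416 and 390 on the GFP control arrays. The groups did not overlap, and the log2 fold change was 0.36 (SE 0.04, limma adjusted p = 1.72e-06), which is 1.28-fold. The ending _x_at marks probes that can bind other transcripts, so the next probe set, 1433468_at, which carries no such mark, is given beside it. It read 104, 102 and 102 on the arrays labelled IRF2, against 74.0, 70.3 and 78.4 on the GFP control arrays, and was higher by 0.47 (SE 0.05, limma adjusted p = 2.37e-05 over all 45037 probe sets, of which 16.3% were called). The changes of these 2 probe sets differed by 0.11 (SE 0.07), which did not pass (limma adjusted p = 0.530). The remaining Irf2bpl probe set, 1447815_x_at, was as dim as the tryptophan controls, at 4.98 ± 0.491 on the arrays labelled IRF2 and 4.39 ± 0.0896 on the GFP control arrays (n = 3 each, SD).

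Irf2bp2, on chromosome 8 like Irf2, was read by 4 probe sets. The brightest, 1433634_at, read 572, 585 and 589 on the arrays labelled IRF2, against 569, 588 and 591 on the GFP control arrays. These values overlapped throughout, and the 95% interval of the log2 fold change ran from -0.06 to 0.06 (limma adjusted p = 0.976). The probe set 1433632_at read 158, 171 and 170 on the arrays labelled IRF2, against 151, 150 and 151 on the GFP control arrays, with no overlap. It was higher by 0.14 (SE 0.04, limma adjusted p = 0.0362 over all probe sets). The probe set 1433633_at, also without overlap, was higher by 0.13 (SE 0.04), but did not pass (adjusted p = 0.0672), and 1454665_at differed by 0.08 (SE 0.09). The changes of 1433632_at and 1433633_at exceeded that of the brightest probe set by 0.15 and 0.13 (SE 0.05 each), and neither excess passed (limma adjusted p = 0.234 and 0.255 over 10246 such differences, of which 0.722% passed). Of the 4 probe sets, 1433632_at alone passed on its own, and a difference between the probe sets was not shown. Irf2bp1, on chromosome 7, read 194, 187 and 180 on the arrays labelled IRF2, against 186, 179 and 182 on the GFP control arrays, and its interval ran from -0.05 to 0.13 (limma adjusted p = 0.509).

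**Figure D2:**
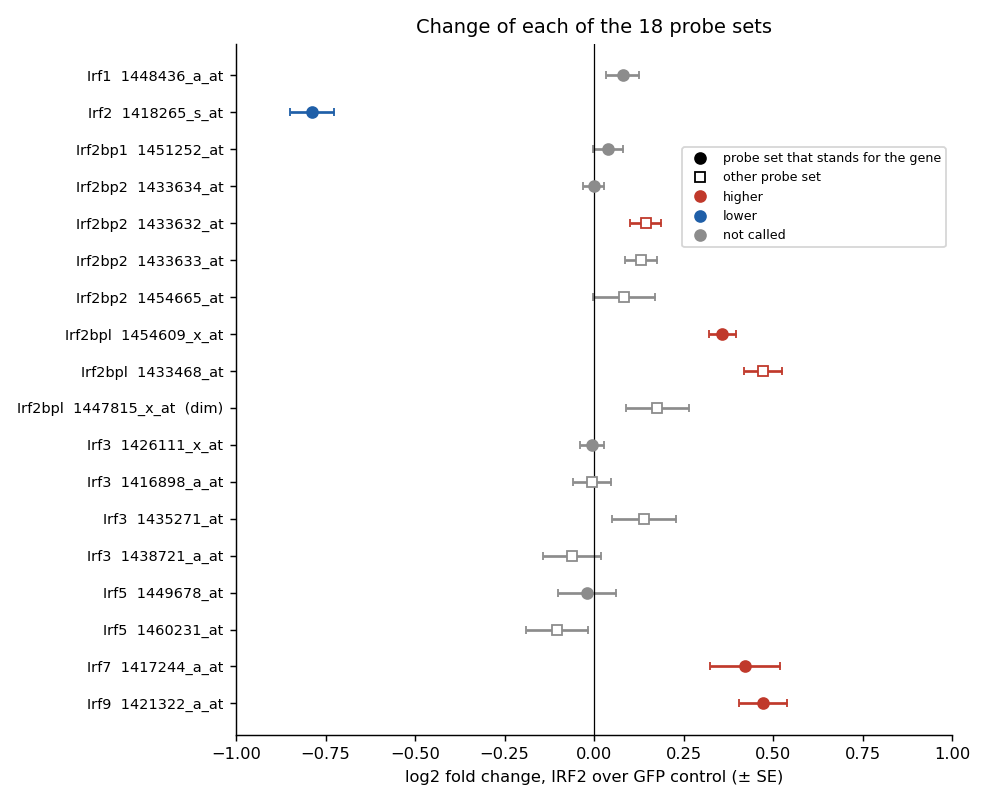
Log2 fold change of IRF2 over GFP control (x axis, ± SE) for each of the 18 probe sets, each tested on its own over all probe sets with no filter; filled circles stand for the gene, open squares are the other probe sets, and "dim" marks the probe set under the intensity filter. Irf2 lies at -0.79, both bright Irf2bpl probe sets lie at 0.36 and 0.47, and the Irf2bp2 probe sets run from -0.0015 to 0.14.

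Genes whose pattern over the 6 arrays was most like that of a called member were sought among all genes tested, by the root mean square difference of mean-centred log2 values. For Irf2 these were Agpat5 (0.0463), Cdh1 (0.0464) and Rgs17 (0.0502); Agpat5 encodes an acyltransferase of phospholipid synthesis, Cdh1 the epithelial adhesion protein E-cadherin and Rgs17 a regulator of G-protein signalling. Agpat5 and Cdh1 lie on chromosome 8, as Irf2 does. Their log2 fold changes were -0.84 (SE 0.02) for Agpat5 (-0.54 averaged over its probe sets), -0.75 (SE 0.04) for Cdh1 and -0.78 (SE 0.05) for Rgs17. The nearest to Irf9 were Gm5817, Crabp2 and AI661453 (0.0235 to 0.0253), the nearest to Irf7 were Aox1, Pitx1 and Rfx5 (0.0397 to 0.0564), and the nearest to Irf2bpl were Ppp1r9a, Adgrl3 and Lrch2 (0.0245 to 0.0290). With 2 groups of 3 arrays, such likeness rests for the most part on the size of the group difference. In the order of genes along chromosome 8, the 3 tested genes on either side of Irf2 had log2 fold changes between -0.25 and 0.04. Of these 6 neighbours, Slc25a4, Cenpu and Rwdd4a fell (-0.23, -0.25 and -0.11), where 19.8% of all genes tested fell. Trappc11 differed by -0.10 (limma adjusted p = 0.062), and the nearest on each side, Primpol and Stox2, differed by -0.14 and 0.04 without passing. Among listed genes elsewhere on chromosome 8, Tlr3, Bst2 and Psmb10 rose (1.78, 1.20 and 0.74) and Brd7 and Ikbkb fell (-0.23 and -0.16). The calls of Brd7 and Ikbkb were lost when their probe sets were averaged. Il15 (-0.06), Klf2 (0.14) and Cdh5 (0.14), also on chromosome 8, did not pass. The share called on chromosome 8 was not computed, and a change shared along it was not tested. Rwdd4a did not pass without the intensity trend (adjusted p = 0.0751), without GFP control replicate 3 (0.0906) or without IRF2 replicate 1 (0.0849).

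The genes that act with the family were described from lists drawn up with earlier results of these data known. Among the kinases and adaptors that activate IRF3, IRF5 and IRF7, 2 of 13 tested rose and 4 fell, a share of 46.2% beside 36.3% of all genes tested, with a median log2 fold change of 0.0054. Azi2, a TBK1 adaptor, fell by 0.29 (SE 0.03), Tbk1, the kinase that phosphorylates IRF3, fell by 0.12 (SE 0.03), and Ikbkb, an NF-kappaB kinase known to act on IRF5, fell by 0.16 (SE 0.04). Averaged over its probe sets, Ikbkb no longer passed (-0.12, adjusted p = 0.102), and Tbk1 did not pass without the intensity trend (adjusted p = 0.0707). Ikbkg, the regulatory subunit of that kinase, rose by 0.26 (SE 0.04; 0.15 averaged over its probe sets), and Slc15a4, a lysosomal transporter needed for IRF5 activation, rose by 0.15 (SE 0.04). The call of Slc15a4 was lost when its probe sets were averaged (0.09, adjusted p = 0.462). The adaptor gene Sting1 also fell (-0.10, SE 0.03, limma adjusted p = 0.0244), and its change was not followed under other settings. Myd88, Ticam1 and Mavs, the adaptors of Toll-like and RNA-sensing receptors, did not pass.

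Among the interferon receptors, JAKs and STATs, 5 of 9 tested genes rose and 1 fell, 66.7% beside 36.3% of all genes tested, with a median of 0.10. The type I interferon receptor genes Ifnar2 (0.29, SE 0.04) and Ifnar1 (0.22, SE 0.05) rose, and Jak2 fell by 0.09 (SE 0.02; adjusted p = 0.0578 without the intensity trend). Averaged over its probe sets, Ifnar1 no longer passed (0.14, adjusted p = 0.0576). Of the 7 interferon ligand genes measured, 6 lay under the filter, and Ifna1, the remaining gene, differed by 0.04 (SE 0.12, adjusted p = 0.821). Ifnb1 averaged 10.1 ± 0.414 on the arrays labelled IRF2 and 10.0 ± 1.53 on the GFP control arrays (n = 3 each, SD), and the groups overlapped.

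Among further IRF cofactors and modifiers, 6 of 17 tested genes rose and 3 fell, 52.9% beside 36.3% of all genes tested, with a median of -0.02. Trim21, an interferon-induced ubiquitin ligase that acts on several IRF proteins, averaged 40.9 ± 4.14 on the arrays labelled IRF2 and 24.1 ± 0.880 on the GFP control arrays (n = 3 each, SD), a log2 fold change of 0.76 (SE 0.08; adjusted p from limma = 4.03e-06; 0.50 with 16 added before the log). Rbck1, a ubiquitin ligase subunit known to limit IRF3, rose by 0.25 (SE 0.04). Npm1, which binds IRF1, fell by 0.14 (SE 0.02), and the bromodomain gene Brd7 fell by 0.23 (SE 0.04), but did not pass when averaged over its probe sets (-0.11, adjusted p = 0.0938). Among 10 tested partners of the IRF2-binding proteins none rose and 2 fell, which is 20% beside the same 36.3%: Eaf1 (-0.18, SE 0.03) and Tead4 (-0.25, SE 0.07; -0.15 averaged over its probe sets). Tead1 and Klf2 did not pass in the main fit. Tead1 was called higher under quantile normalization (0.10, limma adjusted p = 0.0361), and Klf2 without IRF2 replicate 3 (0.21, limma adjusted p = 0.0156). Vgll4, which binds IRF2BP2, differed by 0.03 (SE 0.04).

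Of 24 tested genes known to be bound by IRF1, IRF2 or both, 14 rose and 5 fell, 79.2% beside 36.3% of all genes tested, with a median log2 fold change of 0.74. The list was drawn up with these results known. Gsdmd, the pyroptosis effector whose transcription is known to depend on IRF2, averaged 236 ± 7.79 on the arrays labelled IRF2 and 99.2 ± 2.60 on the GFP control arrays (n = 3 each, SD), a log2 fold change of 1.25 (SE 0.04). Psmb8 (3.67, SE 0.14), Tap2 (2.06, SE 0.08) and Erap1 (1.47, SE 0.06), which act in antigen processing, also rose. Averaged over its probe sets, Psmb8 came to 1.94. The 5 genes that fell were Cd274, Cxcl10, Ccl5, Ptgs2 and Tapbp, with changes from -1.16 to -0.17. With 16 added before the log, Cxcl10 moved to -0.42 and Ccl5 to -0.47, against -0.77 and -0.75 without it. Of 21 tested genes known as ISGF3 targets, Irf7 and Stat2 among them, 12 rose and 3 fell, 71.4% beside 36.3% of all genes tested, with a median of 0.34. The filter left out 6 measured genes of the first list and 5 of the second, and Il7 of the first and Irf7 and Dhx58 of the second passed it through the arrays labelled IRF2. Dhx58, for example, averaged 19.7 ± 1.47 on those arrays and 8.78 ± 0.335 on the GFP control arrays (n = 3 each, SD), so these counts are given as a description and support nothing. Ifih1 (1.38, SE 0.05), Parp14 (2.06, SE 0.10), Bst2 (1.20, SE 0.07; also in the list before) and Ifi35 (0.44, SE 0.03) had the smallest p-values, and Ifit2, Ifit3 and Oasl1 fell, by 0.35 to 0.54 (Ifit3 by 0.26 with 16 added before the log). Parp14 came to 1.26 with 16 added before the log and to 1.04 averaged over its probe sets. The 2 lists share 1 tested gene, Bst2.

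**Figure D3:**
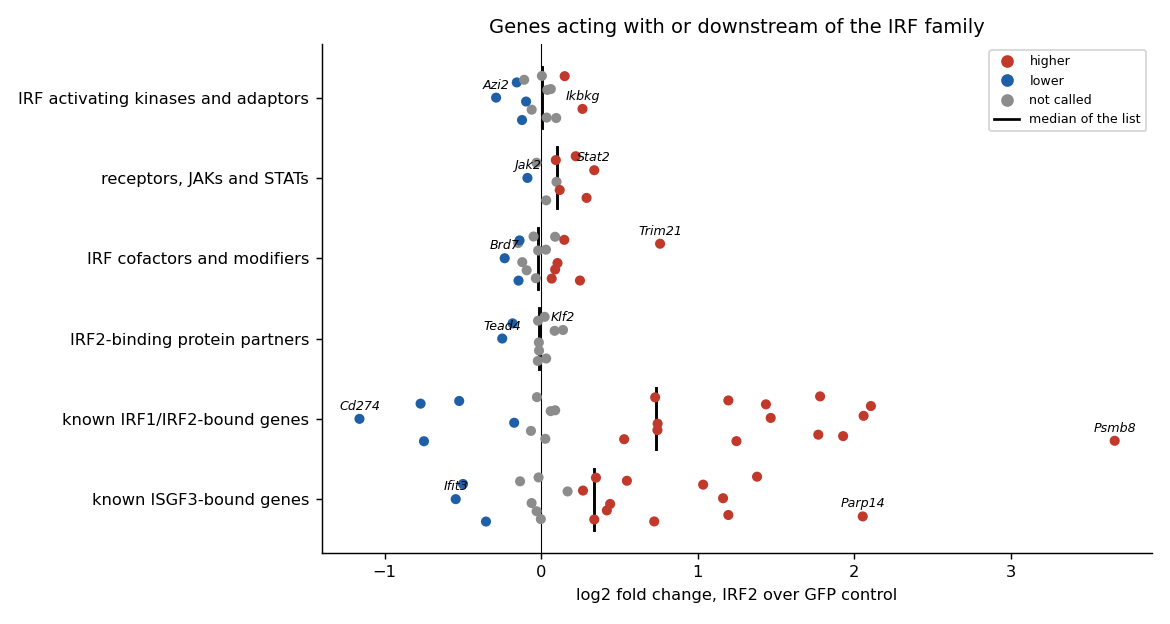
Log2 fold change, IRF2 over GFP control (x axis), of each tested gene in 6 lists, coloured by its call, with the list median as a black bar and the lowest and highest gene of each list named; points are spread vertically for legibility only. The medians are 0.0054, 0.10, -0.02, -0.01, 0.74 and 0.34 from top to bottom.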

How the data were processed

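The 6 arrays were grouped by their titles, 3 as IRF2 and 3 as GFP control. The authors deposited a linear intensity per probe set and array. The processing notes of the submitters name MAS5 with its role and version unstated, and no source says how the arrays were scaled. The array medians lay between 18.2 and 18.7 and pairwise correlations between 0.996 and 0.998 over probe sets; no further scaling was applied. Gene symbols came from the platform annotation at GEO: 34945 had 1 symbol, 932 several (left unnamed) and 9160 none. The symbols of 34741 were brought up to date through gene numbers in RefSeq's GRCm38.p6 table. The probe set with the highest mean log2 intensity stood for a gene, and genes at or under the 40th percentile of non-control probe sets were left out. The main test was limma 3.58.1 (R 4.3.3) on log2 intensity (lmFit, eBayes with an intensity trend, group as the only term, 4 residual degrees of freedom), two-sided, with Benjamini-Hochberg adjustment over all 12795 genes and a threshold of 0.05; every adjusted p is from limma. Probe sets were also fitted each on its own with no filter, and, after the values were seen, as differences from their gene's brightest probe set (eBayes without trend). Named genes are all members, Irf4 and Irf8, up to 4 genes of each list with the smallest p, and the 3 genes most like each called member; other list genes, the neighbours of Irf2 and the markers named were chosen after their values were seen. The members and lists were chosen with earlier results of these data known. Promoter sequences are RefSeq's, build GRCm38.p6. The number of arrays limits the precision.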

Additional observations from a re-analysis of the deposited data

How the results depend on the processing

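Each alternative normalization, pseudocount, filter, probe set rule and variance model was run, as was leaving out each array. Under all of those that kept the gene, Irf2 stayed lower and Irf7, Irf9 and Irf2bpl stayed higher at an adjusted p under 0.05; Irf7 was left out by the stricter filter. Irf2 ran from -0.81 to -0.59, Irf9 from 0.33 to 0.50, Irf2bpl from 0.32 to 0.38 and Irf7 from 0.19 to 0.49. Irf1 and Irf2bp1 kept their sign and did not pass. The members near 0 changed sign without passing: Irf3 came to 0.0081 and Irf2bp2 to 0.024 under quantile normalization, and to 0.017 and 0.089 in the mean of probe sets. With 1 array left out, Irf3 ran from -0.019 to 0.0033, Irf2bp2 from -0.019 to 0.011, Irf5 from -0.14 to 0.047 and Ifna1 from -0.074 to 0.13. Genes called higher numbered 1764 to 2302 and lower 2015 to 2554 over the alternatives. The replicate numbers of the titles did not pair the arrays (correlations of deviations 0.072, -0.076 and -0.00077); with them as a replicate block 2141 genes were higher and 2537 lower, and no call of a member changed. Intensities near or under the filter limit what can be read of Irf4, Irf8 and the interferon ligand genes.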

Other observations

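Of the genes known to be bound by IRF1, IRF2 or ISGF3, 11 measured ones lay under the intensity filter. In 3 of these 11 the groups did not overlap. Among all genes tested the groups did not overlap in 46.2%, and no such share was taken for genes under the filter. The count is therefore no result about these genes. Nlrc5, the transactivator of MHC class I genes, averaged 7.30 ± 0.0502 on the arrays labelled IRF2 and 5.93 ± 0.195 on the GFP control arrays (n = 3 each, SD), with no overlap between the groups. Oasl2, an interferon-stimulated gene, averaged 6.05 ± 0.579 on the arrays labelled IRF2 and 4.49 ± 0.456 on the GFP control arrays, also without overlap. Cxcl3, a chemokine gene, lay the other way, at 4.10 ± 0.0659 on the arrays labelled IRF2 and 5.71 ± 0.884 on the GFP control arrays, again without overlap. With each probe set tested on its own and no filter, the log2 fold changes were 0.30 for Nlrc5 (limma adjusted p = 0.0201), 0.43 for Oasl2 (0.00710) and -0.47 for Cxcl3 (0.00629). All 3 read at intensities near those of the tryptophan controls. In that fit 16.3% of all 45037 probe sets were called. Ciita, the MHC class II transactivator, averaged 10.3 ± 0.299 on the arrays labelled IRF2 and 9.08 ± 1.02 on the GFP control arrays, and the groups overlapped.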
